A study of Mus musculus with 13 samples.

Results

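The right hemispheres of 5 nlsYAP5SA mice were compared with those of 3 wild-type C57BL/6 mice, a reference group from outside their litters, to ask which differences hold against a second reference and which set the C57BL/6 mice apart from both transgenic groups. These 8 samples, of 13 in the series, were chosen by their titles, mutant for nlsYAP5SA and background for C57BL/6. All RNA came from mice at postnatal day 11, with the olfactory bulb and cerebellum removed. The nlsYAP5SA mice had the genotype NexCre +/- YAP5SAnls +/-, which joins a conditional transgene for a nuclear YAP1 that LATS kinases cannot inactivate with a Cre allele inserted at Neurod6, also called Nex. Cre is therefore made in the NEX/NeuroD6 lineage, mainly excitatory neurons of the neocortex and hippocampus and their precursors, and a whole hemisphere mixes these cells with all others. The C57BL/6 mice were WT, age-matched and not littermates. The other 5 samples, called control, were littermates of the nlsYAP5SA mice with the genotype NexCre -/- YAP5SAnls +/-, so they carried the transgene without Cre. The labels give the strain as C57BL/6J for all 13 mice, and they do not name the colony or litter of any mouse. Litter and transgene differ together between C57BL/6 and control mice and cannot be told apart, and whether colony or collection also differed is not stated.

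In the Hippo pathway, MST and LATS kinases phosphorylate YAP1 and its relative TAZ, the product of Wwtr1, and keep both out of the nucleus. YAP1 that escapes phosphorylation enters the nucleus, binds TEAD transcription factors and switches on genes for secreted matrix proteins, for growth and for the pathway's own brakes. In the forebrain YAP1 is found mostly in radial glia, ependymal cells and astrocytes, and mature neurons make little of it.

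The libraries held 20871566, 21079474, 23296653, 23586887 and 21851691 estimated counts in nlsYAP5SA 1 to 5 and 22788250, 21541836 and 24392197 in C57BL/6 1 to 3, so the depths of the groups overlapped. Levels are CPM, counts scaled to libraries of equal size after TMM normalization, listed in the order of the samples, and a count of 0 in a library allows up to 3 counts. That limit covers counting error only. Several libraries stood apart in ways that the genotypes do not state. CT010467.1, the gene with the largest share of the counts of any 1 library, took 2.91%, 7.03%, 7.37%, 9.74% and 9.26% of counts in nlsYAP5SA 1 to 5 and 8.23%, 9.56% and 3.6% in C57BL/6 1 to 3, so nlsYAP5SA 1 and C57BL/6 3 were low. In control 1 to 5 it took 6.88%, 6.93%, 7.14%, 2.44% and 7.14%. Whether this share bears on the calls was not tested. Reads from Y-linked genes were present in nlsYAP5SA 3 and 4, in C57BL/6 1 and 3 and in all 5 control mice, and absent from nlsYAP5SA 1, 2 and 5 and C57BL/6 2. Sex was not recorded, and X- and Y-linked genes are not described. Ttr, which encodes the transthyretin that choroid plexus secretes, stood at 258, 276, 138, 0.783 and 55.2 CPM in nlsYAP5SA. It stood at 1.52, 158 and 239 CPM in C57BL/6, so that both groups held low and high libraries (log2 fold change 0.11, adjusted p = 0.972 in edgeR). Summed over 15 choroid plexus genes, the level ran from 127 CPM in nlsYAP5SA 4 to 567 CPM in nlsYAP5SA 2. In C57BL/6 1 to 3 the sum was 144, 347 and 507 CPM. Of the 15 genes, 1 was called against C57BL/6, where 6.38% of all genes were called. That gene was Calml4, a calmodulin-like protein, at 1.13 to 2.17 CPM against 0.583 to 0.969 CPM, and it no longer passed without nlsYAP5SA 1, 2, 3 or 5 or C57BL/6 1 or 2 (log2 fold change 1 to 1.18). Without C57BL/6 3, 3 choroid plexus genes were called. Enpp2, a lipid enzyme of choroid plexus and myelin, had the highest mean of the list over the 8 samples. It stood at 101 to 228 CPM and 124 to 217 CPM, and Ttr was above it in nlsYAP5SA 1 and 2 and C57BL/6 3.

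The labelled tissue was checked against marker genes. Camk2a, a kinase of excitatory forebrain neurons, stood at 1394, 1550, 1480, 1091 and 1406 CPM in nlsYAP5SA and 1266, 1351 and 1453 CPM in C57BL/6. It was among the abundant genes of every hemisphere, and the groups overlapped. Genes of tissue outside the dissected hemisphere were low: summed over 8 cerebellar genes the level was 85.3 to 111 CPM in the 8 samples, and over 6 olfactory bulb genes 28.5 to 53.3 CPM. The most abundant of these, Zic1, which meninges and septum also express, stood at 49.6 to 58.4 CPM in nlsYAP5SA and 47.4 to 59.9 CPM in C57BL/6. The olfactory bulb list was led by Cdhr1, a photoreceptor and mitral cell cadherin, at 20.4 to 36.3 CPM and 13.5 to 24.3 CPM. In edgeR 0 of 5 tested cerebellar, 0 of 5 olfactory bulb, 0 of 8 striatal, 0 of 6 thalamic, 0 of 6 hypothalamic, 0 of 2 pituitary and 0 of 5 red blood cell genes were called against C57BL/6. At an unadjusted p under 0.05 these lists held 1, 1, 1, 1, 1, 0 and 0 genes, and DESeq2 called 1 olfactory bulb and 1 striatal gene and no other. Among the most abundant genes of the other lists were Pde10a (155 to 170 CPM against 101 to 144 CPM) of striatum, Slc17a6 (105 to 125 CPM against 108 to 156 CPM) of thalamus, Pmch (7.21 to 12.5 CPM against 10.8 to 15.4 CPM) of hypothalamus and Hbb-bs (93.9 to 178 CPM against 122 to 168 CPM) of red blood cells. Pde10a passed the test without C57BL/6 3 (log2 fold change 0.45), as did 1 striatal gene that was lower, and Pmch without nlsYAP5SA 1 (log2 fold change -0.69), as did 1 olfactory bulb gene that was lower. With counts corrected for GC content and transcript length, Pde10a (log2 fold change 0.28, adjusted p = 0.0435), Pmch (-0.58, adjusted p = 0.0314) and Slc17a6 (-0.31, adjusted p = 0.0382) were called, and Pde10a was also called with the Y-linked level as covariate (0.42, adjusted p = 0.0368). Cdhr1 was called higher with Ttr as covariate (0.48, adjusted p = 0.0408).

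Against the wild-type hemispheres, 1061 of 16641 genes tested (6.38%) passed the quasi-likelihood test of edgeR with p adjusted by Benjamini-Hochberg at 0.05. Of these, 692 (4.16%) were higher and 369 (2.22%) lower in nlsYAP5SA, and all adjusted p below are from this test. The levels of the 5 nlsYAP5SA and 3 C57BL/6 samples did not overlap for 685 of the genes called higher and 361 of those called lower. A called gene tends to be separated in this way, so these counts describe the calls and are not further evidence. Against littermate controls the same 5 nlsYAP5SA samples gave 1761 calls among 16315 genes (10.8%), 1200 higher (7.36%) and 561 lower (3.44%). These shares over all genes are the ones to set beside each list count below. The gene lists were chosen with earlier results of these data known, so their counts are descriptions and not further evidence. Because both comparisons use the same nlsYAP5SA samples, their calls are not independent. Called in the same direction against both references were 818 genes, 594 higher and 224 lower, which is 77.1% of the calls against C57BL/6 and 46.5% of those against control. Since all 5 controls had Y-linked reads and nlsYAP5SA 1, 2 and 5 had none, the level of Y-linked genes was also fitted as a covariate. That fit gave 816 calls against C57BL/6 and 542 against control, and the 417 called against both were 51.1% and 76.9% of these. Against control the fitted difference then rests mainly on nlsYAP5SA 3 and 4, the only nlsYAP5SA samples with Y-linked reads. With 542 calls against control in place of 1761, the shares of 76.9% and 46.5% cover different sets and do not show closer agreement. Without the covariate, the genes called against both references numbered 342 without C57BL/6 1, 492 without C57BL/6 2, and 516, 510 and 427 without nlsYAP5SA 1, 2 and 5. Levels above every sample of both references were seen for 570 of the genes called higher against C57BL/6, and levels below every such sample for 177 of those called lower. These counts, too, cover called genes only. The median log2 fold change of all genes, which TMM scaling sets near 0, was -0.01 against either reference.

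The difference between the 2 reference groups was itself tested, since it is the amount by which an effect of nlsYAP5SA changes with the reference. Between control and C57BL/6, 28 of 16546 genes (0.169%) were called in edgeR, 20 higher and 8 lower in control, and 625 had an unadjusted p under 0.05. Of the 943 littermate calls that were not called the same way against C57BL/6, 1 was called between the reference groups, and 606 were higher and 337 lower in nlsYAP5SA. Of the 243 calls against C57BL/6 that were not shared with the littermate comparison, 23 were called between the references and 220 were not, and 145 of the 243 were lower in nlsYAP5SA. The count of 1061 depended on single libraries: without C57BL/6 1 it was 401, without C57BL/6 2 it was 581 and without C57BL/6 3 it was 1757. Without nlsYAP5SA 1, 2 or 5 it was 636, 645 and 509. With counts corrected for GC content and transcript length, 43.0% of 1864 calls were higher in place of 65.2%, and 57.3% of 1477 with a robust form of the correction that was added after the data were seen. In the 4 mice with Y-linked reads, nlsYAP5SA 3 and 4 against C57BL/6 1 and 3, 47 genes were called, 43 of them higher, a subset chosen after the data were seen.

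Most of the listed genes that TEAD factors are known to switch on were called higher in nlsYAP5SA against both references. Of 22 YAP1/TAZ target genes, 12 were called higher and 1 lower against C57BL/6, with a median log2 fold change of 0.63 where the median of all genes was -0.01. Against control 15 were higher and 1 lower, with a median of 0.75, and 12 were called higher against both. The mean of log2(CPM + 0.5) over the list was 4.70, 4.75, 4.49, 4.65 and 4.81 in nlsYAP5SA and 3.90, 3.88 and 3.99 in C57BL/6. The 1 lower gene, Gadd45a, was not called lower without nlsYAP5SA 1, 2, 3 or 5 or without C57BL/6 1, 2 or 3. All 5 nlsYAP5SA scores lay above every other sample, and the controls (3.78 to 4) overlapped with C57BL/6. The median was 0.44 in the mice with Y-linked reads and 0.80 without C57BL/6 3.

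**Figure D1:**
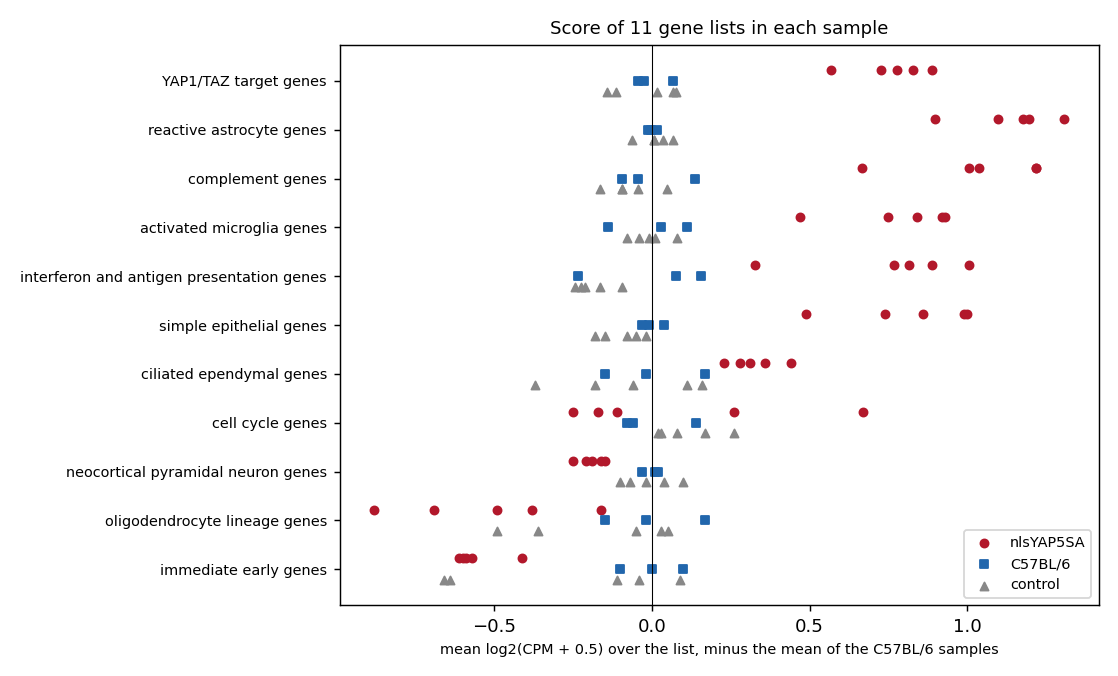
Score of 11 gene lists in each of 13 samples, as the mean of log2(CPM + 0.5) over the list minus the mean of the C57BL/6 samples. Each point is a hemisphere: red circles nlsYAP5SA (5), blue squares C57BL/6 (3), grey triangles control (5). The nlsYAP5SA scores lie above all others for YAP1/TAZ targets and for reactive astrocyte, complement, activated microglia, interferon, simple epithelial and ciliated ependymal genes, and for immediate early genes control 1 and 2 lie with nlsYAP5SA.

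Cyr61, a secreted matrix protein and a standard readout of YAP1, stood at 27.5, 25.1, 17.2, 29.4 and 29.6 CPM in nlsYAP5SA and 5.78, 6.47 and 5.49 CPM in C57BL/6. The lowest nlsYAP5SA value, in sample 3, was above every wild-type value (log2 fold change 2.11, SE 0.18, adjusted p = 0.000233), and controls stood at 2.94 to 5.88 CPM. Ankrd1, a nuclear cofactor of stretched muscle and another standard readout, stood at 4.25, 5.04, 2.73, 6.04 and 6.51 CPM in nlsYAP5SA and 0.0897, 0 and 0.121 CPM in C57BL/6. It was near the limit of detection in both references and detected in every nlsYAP5SA hemisphere (log2 fold change 5.95, SE 0.52, adjusted p = 0.000257). Ctgf, which encodes a matrix protein related to Cyr61, stood at 55.8, 51.9, 45.4, 38.4 and 49.1 CPM in nlsYAP5SA and 24.3, 24.8 and 21.4 CPM in C57BL/6. The groups did not overlap (log2 fold change 1.02, SE 0.12, adjusted p = 0.00123). Against control, at 16.4 to 19.4 CPM, the difference was larger (log2 fold change 1.43, SE 0.09, adjusted p = 1.82e-06). Control levels lay below every wild-type level, but this difference between the references did not pass the test (log2 fold change -0.40, SE 0.08, adjusted p = 0.249 for control minus C57BL/6).

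Wisp2, the gene of another member of that matrix family, was among the large increases. It stood at 13.7, 12.8, 13, 12.8 and 15.5 CPM in nlsYAP5SA and 0.224, 0.0959 and 0.161 CPM in C57BL/6. Every nlsYAP5SA hemisphere was far above the wild-type hemispheres (log2 fold change 6.32, SE 0.20, adjusted p = 2.3e-07) and above the controls, at 0 to 0.417 CPM. Ltbp2, which encodes a binding protein of matrix microfibrils, stood at 18.4, 18.4, 9.01, 13.4 and 21.9 CPM in nlsYAP5SA and 0.179, 0.719 and 0.525 CPM in C57BL/6. Sample 3 was lowest among nlsYAP5SA, and the groups did not overlap (log2 fold change 5.07, SE 0.42, adjusted p = 0.000182). Igfbp3, whose product binds insulin-like growth factors, stood at 72.6, 64.7, 63.9, 27.9 and 62.1 CPM in nlsYAP5SA and 17.1, 17.5 and 17.8 CPM in C57BL/6. The low value was nlsYAP5SA 4, still above all wild-type values (log2 fold change 1.72, SE 0.27, adjusted p = 0.00515). Axl, a receptor tyrosine kinase of glia, had a smaller difference. It stood at 58.8, 70, 55.6, 64.7 and 67.2 CPM in nlsYAP5SA and 40.6, 43.7 and 41.9 CPM in C57BL/6, with no overlap between the groups (log2 fold change 0.57, SE 0.09, adjusted p = 0.00459). Not every target was higher: Asap1, a regulator of the cytoskeleton and the most abundant gene of the list, stood at 105 to 126 CPM and 116 to 147 CPM.

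**Figure D2:**
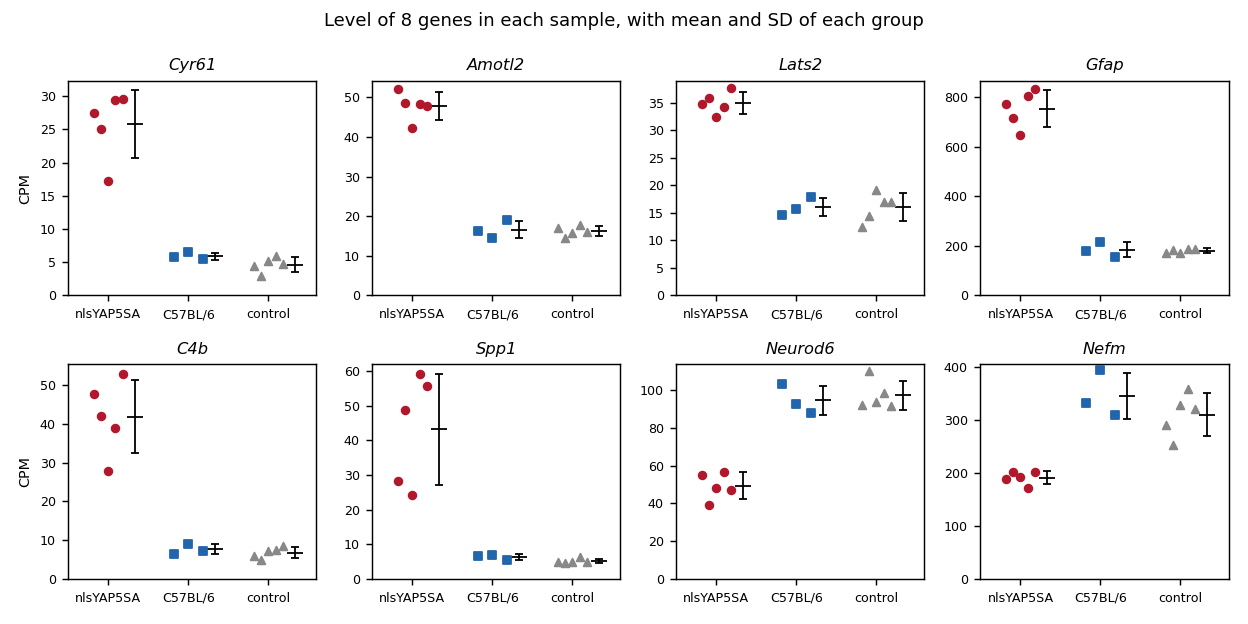
Level in CPM of 8 genes in each hemisphere of the nlsYAP5SA (red circles, 5), C57BL/6 (blue squares, 3) and control (grey triangles, 5) groups, with the mean and SD of each group as a bar. The nlsYAP5SA samples lie above both reference groups for Cyr61, Amotl2, Lats2, Gfap, C4b and Spp1 and below both for Neurod6 and Nefm.

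Brakes of the Hippo pathway and cofactors of TEAD factors were among the genes that rose. Lats2, one of the kinases that inactivate YAP1, stood at 34.7, 35.8, 32.5, 34.2 and 37.7 CPM in nlsYAP5SA and 14.7, 15.8 and 17.9 CPM in C57BL/6. No nlsYAP5SA value came near the wild-type range (log2 fold change 1.10, SE 0.09, adjusted p = 0.000154) or the control range, 12.5 to 19.1 CPM. Amotl2, an angiomotin that holds YAP1 at cell junctions, stood at 52.2, 48.6, 42.3, 48.2 and 47.9 CPM in nlsYAP5SA and 16.2, 14.6 and 19 CPM in C57BL/6. All 5 values exceeded the wild-type ones (log2 fold change 1.51, SE 0.10, adjusted p = 4.45e-05). Ajuba, a scaffold protein that binds LATS kinases, stood at 11.8, 10.4, 10.9, 12.3 and 9.41 CPM in nlsYAP5SA and 3.32, 3.45 and 3.84 CPM in C57BL/6, and its groups did not overlap (log2 fold change 1.62, SE 0.13, adjusted p = 0.000127). Vgll3, a cofactor that binds TEAD factors, stood at 21.7, 22.6, 17.9, 23.5 and 23.8 CPM in nlsYAP5SA and 2.78, 2.2 and 4.36 CPM in C57BL/6. Its nlsYAP5SA levels were several times those of C57BL/6 (log2 fold change 2.78, SE 0.20, adjusted p = 6.87e-05), and its controls stood at 2.21 to 3.75 CPM. Wwc2, a membrane scaffold related to KIBRA, stood at 82.4 to 89.5 CPM in nlsYAP5SA and 48.7 to 60.8 CPM in C57BL/6 (log2 fold change 0.66, SE 0.08, adjusted p = 0.0014).

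Of 29 Hippo pathway components, 5 were called higher and 0 lower against C57BL/6, and 6 higher and 0 lower against control. The count against C57BL/6 was 3 without nlsYAP5SA 1, 2 or 5 or C57BL/6 1 or 2 and 8 without C57BL/6 3, and 3 with the Y-linked level as covariate. Tead1, the most abundant of the TEAD factors in these counts, stood at 45, 56.8, 39.9, 53.4 and 52.3 CPM in nlsYAP5SA and 26.6, 18.2 and 38.2 CPM in C57BL/6. Its groups did not overlap (log2 fold change 0.82, SE 0.21, adjusted p = 0.0468), but it no longer passed without nlsYAP5SA 1, 2, 4 or 5 or C57BL/6 1 or 2 (log2 fold change 0.61 to 0.86). Lats1, the other LATS kinase, stood at 61.1, 80.2, 64.4, 77.9 and 72.6 CPM in nlsYAP5SA and 59.4, 40 and 76.7 CPM in C57BL/6. The wild-type mice spanned most of the range of both groups, and no difference was called (log2 fold change 0.26, SE 0.18, adjusted p = 0.444). Wwtr1 stood at 31.3 to 45 CPM and 32.9 to 38.1 CPM, and Taok1, a kinase upstream of MST and the most abundant gene of the list, at 202 to 290 CPM and 148 to 286 CPM. Yap1 itself, the count of which may include reads from the transgene, stood at 24.3, 26.6, 22.6, 24.3 and 23.2 CPM in nlsYAP5SA and 21.6, 19.4 and 20.6 CPM in C57BL/6. All 5 nlsYAP5SA levels were above the wild-type ones by a small amount that did not pass the test (log2 fold change 0.22, SE 0.08, adjusted p = 0.13). Against control the same samples passed it (log2 fold change 0.23, SE 0.06, adjusted p = 0.0361), and between the references the log2 fold change was 0.01 (adjusted p = 1).

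Neurod6, the gene that carries the Cre insertion, encodes a transcription factor of excitatory forebrain neurons. It stood at 55.2, 38.9, 48.1, 56.8 and 47.2 CPM in nlsYAP5SA and 103, 92.5 and 88 CPM in C57BL/6. Every nlsYAP5SA hemisphere was below every wild-type one (log2 fold change -0.95, SE 0.11, adjusted p = 0.00123) and below the controls, which stood at 91.5 to 110 CPM. Loss of 1 allele to the insertion and fewer or less active cells of this lineage cannot be told apart. Within 10 Mb of Neurod6 on either side, 7 of 104 tested genes (6.73%, where 6.38% of all genes were called) were called against C57BL/6, 6 of them also against control, and 0 were among the genes that set C57BL/6 apart. Within 5 Mb 3 of 50 were called (6%) and within 20 Mb 18 of 204 (8.82%), 15 of them also against control.

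The upstream sequences of target genes were searched for GGAATG, the core of the motif that TEAD factors bind, on both strands of the 250 bases before each start. Promoter sequences are from RefSeq with build GRCm38.p6. The table held 17 promoters of 15 of the 22 target genes, and 6 of the 17 had the motif, where 12.6% of all 32851 promoters had it. Of the 10 genes with the largest increases against C57BL/6, 5 had promoters in the table. Of their 6 promoters 1 had the motif, that of Ankrd1. These 10 genes include Gm9855, Tdg-ps, Eno1b, Glns-ps1 and Gm10184, copies of other genes that controls express too. Of the 10 with the largest decreases, 5 had promoters in the table, and 0 of these 5 promoters had the motif. A match is a description of letters and shows no binding. The promoters of 4 genes that rose against both references are shown, with the motif in capitals, as GGAATG or as its reverse complement CATTCC. That of Cyr61 lies at chr3:145649986-145650235 on the minus strand, that of Ankrd1 at chr19:36119845-36120094 on the minus strand, that of Amotl2 at chr9:102717554-102717803 on the plus strand and that of Axl at chr7:25788734-25788983 on the minus strand. Ankrd1 has the motif at 2 places and the others at 1.
Cyr61: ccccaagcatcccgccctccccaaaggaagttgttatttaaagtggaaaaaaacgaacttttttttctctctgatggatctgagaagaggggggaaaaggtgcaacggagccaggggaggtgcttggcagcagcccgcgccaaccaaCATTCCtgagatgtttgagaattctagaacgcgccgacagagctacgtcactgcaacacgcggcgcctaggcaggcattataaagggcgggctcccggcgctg
Ankrd1: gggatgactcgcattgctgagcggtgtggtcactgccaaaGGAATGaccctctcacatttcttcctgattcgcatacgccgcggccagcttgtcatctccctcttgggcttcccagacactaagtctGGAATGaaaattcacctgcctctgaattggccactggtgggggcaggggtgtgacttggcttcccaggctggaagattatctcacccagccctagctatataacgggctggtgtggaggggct
Amotl2: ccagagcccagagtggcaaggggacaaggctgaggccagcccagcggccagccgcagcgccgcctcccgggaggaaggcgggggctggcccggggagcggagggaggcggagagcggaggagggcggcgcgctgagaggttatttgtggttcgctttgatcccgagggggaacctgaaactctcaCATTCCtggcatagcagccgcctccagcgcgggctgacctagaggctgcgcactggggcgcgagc
Axl: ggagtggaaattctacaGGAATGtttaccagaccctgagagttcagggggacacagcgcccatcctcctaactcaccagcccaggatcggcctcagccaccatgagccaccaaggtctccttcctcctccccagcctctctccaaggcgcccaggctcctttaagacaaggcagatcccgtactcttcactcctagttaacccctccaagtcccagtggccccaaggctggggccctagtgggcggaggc

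Most astrocyte genes of the reactive state were higher against both references. Of 23 such genes, 15 were called higher and 0 lower against C57BL/6, with a median log2 fold change of 1.37, and against control 17 of 22 were called higher. In bulk RNA, more cells of a type and more RNA per cell cannot be told apart. Gfap, the intermediate filament of reactive astrocytes, stood at 771, 714, 648, 806 and 831 CPM in nlsYAP5SA and 181, 215 and 155 CPM in C57BL/6. The lowest nlsYAP5SA level was about 3 times the highest wild-type level (log2 fold change 2.02, SE 0.12, adjusted p = 2.46e-05), and control stood at 170 to 189 CPM. Vim, an intermediate filament of glia and progenitors, stood at 143, 139, 103, 133 and 141 CPM in nlsYAP5SA and 56.9, 52.7 and 42.4 CPM in C57BL/6, with no overlap (log2 fold change 1.37, SE 0.13, adjusted p = 0.000412). Serpina3n, a secreted protease inhibitor of reactive astrocytes, stood at 75.3, 83.2, 69.8, 68.3 and 104 CPM in nlsYAP5SA and 8.07, 9.92 and 8.96 CPM in C57BL/6. The wild-type values were tightly grouped and far below (log2 fold change 3.14, SE 0.16, adjusted p = 6.98e-06). Among controls, by contrast, control 5 stood at 32.8 CPM and the other 4 at 7.88 to 10.2 CPM, so that the difference from control was smaller (log2 fold change 2.55, SE 0.35, adjusted p = 0.000483). Ptx3, a secreted pattern recognition protein, stood at 5.6, 5.51, 4.33, 5.65 and 6.65 CPM in nlsYAP5SA and 0.852, 0.527 and 1.7 CPM in C57BL/6 and did not overlap (log2 fold change 2.39, SE 0.31, adjusted p = 0.00196).

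Lcn2, which encodes an iron-carrying protein that reactive astrocytes secrete, varied among the nlsYAP5SA mice. It stood at 5.47, 2.78, 2.99, 0.565 and 5.71 CPM in nlsYAP5SA and 0, 0.288 and 0.121 CPM in C57BL/6. Sample 4 was the lowest nlsYAP5SA hemisphere, and the groups did not overlap (log2 fold change 4.64, SE 0.91, adjusted p = 0.0165), though the gene no longer passed without C57BL/6 1 (log2 fold change 4.09). Cxcl10, a chemokine induced by interferon, was instead highest in nlsYAP5SA 4. It stood at 1.18, 1.41, 0.823, 4 and 2.2 CPM in nlsYAP5SA and 0.179, 0 and 0.0807 CPM in C57BL/6 (log2 fold change 4.35, SE 0.79, adjusted p = 0.0118). Of 14 genes of resting astrocytes, 1 was called higher and 1 lower against C57BL/6, where 4.16% of all genes were higher and 2.22% lower. The median log2 fold change of the 14 genes was 0.18. Slc1a2, a glutamate transporter and the most abundant of them, stood at 2461 to 4210 CPM and 2628 to 4006 CPM, and the groups overlapped. Kcnj10, the potassium channel of resting astrocytes, stood at 157, 196, 160, 178 and 189 CPM in nlsYAP5SA and 225, 236 and 279 CPM in C57BL/6. It was lower in each nlsYAP5SA hemisphere (log2 fold change -0.50, SE 0.10, adjusted p = 0.0189). Gja1, the astrocyte gap junction protein, stood at 269 to 346 CPM and 226 to 240 CPM (log2 fold change 0.39, SE 0.10, adjusted p = 0.0432), and it no longer passed without nlsYAP5SA 1, 2 or 5 or C57BL/6 1 or 2 (log2 fold change 0.35 to 0.40). The count of resting astrocyte genes called higher was 0 without nlsYAP5SA 1, 2 or 5 or C57BL/6 1 or 2, 4 without nlsYAP5SA 4 and 2 without C57BL/6 3. The count called lower was 2 without C57BL/6 3.

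Some microglia genes were called higher as well. Of 12 genes of resting microglia, 5 were called higher against C57BL/6, and of 17 tested genes of activated microglia 7, with median log2 fold changes of 0.31 and 0.67. Against control the counts were 7 of 12 and 11 of 15, with 1 activated gene lower. Without C57BL/6 1 they were 3 and 4 against C57BL/6. Csf1r, the receptor on which microglia depend for survival, stood at 136, 146, 113, 131 and 151 CPM in nlsYAP5SA and 83.6, 86.8 and 81.6 CPM in C57BL/6. All nlsYAP5SA levels exceeded the wild-type ones (log2 fold change 0.68, SE 0.10, adjusted p = 0.00341). Cx3cr1, the microglial fractalkine receptor, stood at 85.3, 97, 75.4, 96.9 and 101 CPM in nlsYAP5SA and 59, 60.9 and 53.9 CPM in C57BL/6, without overlap (log2 fold change 0.64, SE 0.10, adjusted p = 0.00588).

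Spp1, the gene of osteopontin, stood at 28.2, 48.7, 24.1, 59 and 55.7 CPM in nlsYAP5SA and 6.5, 6.9 and 5.33 CPM in C57BL/6. The nlsYAP5SA mice differed among themselves, with samples 1 and 3 low and samples 2, 4 and 5 high, and all lay above the wild-type mice (log2 fold change 2.78, SE 0.33, adjusted p = 0.00131). Clec7a, a receptor for beta-glucans on activated microglia, had the same 3 samples high. It stood at 1.94, 4.71, 1.6, 6.44 and 5.71 CPM in nlsYAP5SA and 0.135, 0.288 and 0.404 CPM in C57BL/6 (log2 fold change 3.83, SE 0.63, adjusted p = 0.00717). Gpnmb, a membrane glycoprotein of phagocytic cells, stood at 4.43, 3.77, 3.16, 2.26 and 4.03 CPM in nlsYAP5SA and 0.673, 0.479 and 0.404 CPM in C57BL/6. Here sample 4 was the lowest of the nlsYAP5SA mice, with no overlap between groups (log2 fold change 2.74, SE 0.29, adjusted p = 0.00066). Itgax, an integrin of dendritic and activated microglial cells, did not separate the groups. It stood at 0.814, 1.08, 0.0867, 1.52 and 1.31 CPM in nlsYAP5SA and 0.0897, 0.144 and 0.0807 CPM in C57BL/6, with nlsYAP5SA 3 in the wild-type range (log2 fold change 3.14, SE 0.81, adjusted p = 0.0485), and it no longer passed without nlsYAP5SA 1, 2, 4 or 5 or C57BL/6 1, 2 or 3 (log2 fold change 2.91 to 3.42). Apoe, a lipoprotein that astrocytes and microglia make and the most abundant gene of the activated list, stood at 1007 to 1558 CPM and 857 to 1239 CPM, and these ranges overlapped.

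Most complement genes were called higher against both references. Of 17, 11 were called higher and 0 lower against C57BL/6, with a median log2 fold change of 1.01, and 14 were called higher against control. C4b, which encodes the complement component cleaved by the initiating complex, stood at 47.8, 42, 28, 38.9 and 53 CPM in nlsYAP5SA and 6.55, 9.01 and 7.31 CPM in C57BL/6. Sample 3 was lowest, and each nlsYAP5SA level was above the wild-type levels (log2 fold change 2.45, SE 0.21, adjusted p = 0.000233) and the control levels, 4.78 to 8.5 CPM. The genes for the recognition protein C1q moved together. C1qa stood at 54.8, 52.8, 43.2, 46.1 and 53.2 CPM in nlsYAP5SA and 25, 28.9 and 17.9 CPM in C57BL/6, without overlap (log2 fold change 1.05, SE 0.15, adjusted p = 0.00302). C1qc, the most abundant of the list, stood at 53.3, 56.5, 47.2, 51.5 and 55.2 CPM in nlsYAP5SA and 25.5, 31.9 and 20.5 CPM in C57BL/6 (log2 fold change 1.01, SE 0.13, adjusted p = 0.00202). Among receptors for complement fragments, C3ar1 stood at 8.18, 14.1, 6.07, 7.91 and 8.38 CPM in nlsYAP5SA and 3.14, 2.35 and 1.7 CPM in C57BL/6. Sample 2 was the highest (log2 fold change 1.89, SE 0.30, adjusted p = 0.00578). C5ar1 stood at 1.4, 2.97, 1.78, 2.52 and 2.62 CPM in nlsYAP5SA and 0.404, 0.0959 and 0.323 CPM in C57BL/6 (log2 fold change 2.98, SE 0.41, adjusted p = 0.00296), again without overlap. Cfb, a protease of the alternative pathway, stood at 2.08 to 5.56 CPM and 0.888 to 1.3 CPM (log2 fold change 1.67, SE 0.34, adjusted p = 0.0197), and it no longer passed without C57BL/6 1 or 2 (log2 fold change 1.75 to 1.78).

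C3, the central component, stood at 3.12, 2.64, 1.86, 2.17 and 4.4 CPM in nlsYAP5SA and 1.17, 1.73 and 1.33 CPM in C57BL/6. Its groups did not overlap, but it did not pass the test against C57BL/6 (log2 fold change 0.99, SE 0.30, adjusted p = 0.0821), and it did without nlsYAP5SA 3 (log2 fold change 1.12). Against control it passed (log2 fold change 1.10, SE 0.24, adjusted p = 0.0113), and between the references the log2 fold change was -0.09 (adjusted p = 1). Of 13 tested genes for Toll-like receptors and their partners, 2 were called higher against C57BL/6 and 5 against control. Over all genes 4.16% and 7.36% were called higher. Tlr2, a receptor for bacterial lipoproteins, stood at 3.98, 4.52, 3.29, 5.96 and 5.01 CPM in nlsYAP5SA and 1.39, 1.49 and 0.969 CPM in C57BL/6, and the groups did not overlap (log2 fold change 1.82, SE 0.24, adjusted p = 0.0021). Cd14, its co-receptor, stood at 2.47 to 3.57 CPM and 0.848 to 1.73 CPM (log2 fold change 1.14, SE 0.25, adjusted p = 0.025), and it no longer passed without nlsYAP5SA 2 or 5 or C57BL/6 1 (log2 fold change 1.11 to 1.22), which left 1 gene of the list called. Tlr3, a receptor for double-stranded RNA and the most abundant of the list, stood at 8.67 to 11 CPM and 8.61 to 10.5 CPM, and these overlapped.

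Interferon-induced and antigen presentation genes were higher in nlsYAP5SA for 12 of 22 against C57BL/6 and 18 of 22 against control, with median log2 fold changes of 0.98 and 1.27. None of the 22 was lower in edgeR or DESeq2. The list score was 2.56, 2.68, 2.12, 2.80 and 2.61 in nlsYAP5SA and 1.95, 1.87 and 1.56 in C57BL/6. Sample 3 was the lowest nlsYAP5SA hemisphere and C57BL/6 3 the lowest wild-type one, close to the controls (1.55 to 1.70), whereas C57BL/6 1 and 2 were above all controls. The count against C57BL/6 moved with single libraries: it was 6, 6 and 5 without nlsYAP5SA 2, 4 and 5, and 7 and 6 without C57BL/6 1 and 3. With the Y-linked level as covariate it was 7. Rsad2, an antiviral enzyme, stood at 2.76, 3.11, 1.65, 4.04 and 3.19 CPM in nlsYAP5SA and 1.17, 0.719 and 0.606 CPM in C57BL/6, with no overlap (log2 fold change 1.81, SE 0.33, adjusted p = 0.0112). Ifit1, which binds viral RNA, stood at 4.07, 3.67, 1.86, 4.44 and 3.04 CPM in nlsYAP5SA and 1.57, 1.2 and 0.848 CPM in C57BL/6 (log2 fold change 1.49, SE 0.31, adjusted p = 0.021), and it no longer passed without C57BL/6 2 (log2 fold change 1.51). Irf7, a transcription factor of the interferon response, stood at 2.98, 2.83, 1.43, 3.78 and 3.28 CPM in nlsYAP5SA and 1.61, 0.623 and 0.686 CPM in C57BL/6. The level of C57BL/6 1 was above that of nlsYAP5SA 3 (log2 fold change 1.54, SE 0.38, adjusted p = 0.0432), and the gene no longer passed without nlsYAP5SA 1, 2, 4 or 5 or C57BL/6 2 or 3 (log2 fold change 1.32 to 1.54). B2m, the light chain of class I molecules and the most abundant gene, stood at 59.1, 75.4, 54.9, 73.7 and 76.5 CPM in nlsYAP5SA and 44.9, 54.8 and 36.9 CPM in C57BL/6. The groups were separated by a narrow margin, and the difference did not pass the test (log2 fold change 0.56, SE 0.15, adjusted p = 0.0567) but did without nlsYAP5SA 3 or C57BL/6 2 (log2 fold change 0.64 to 0.73).

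Several genes of simple epithelia were called higher in nlsYAP5SA. Of 10 tested genes of this list, 6 were called higher and 0 lower against C57BL/6, with a median log2 fold change of 1.06, and 7 were called higher against control. The count against C57BL/6 was 5 without nlsYAP5SA 1, 2, 4 or 5 or C57BL/6 1 or 2, where Krt19 no longer passed (log2 fold change 1.26 to 1.74). It was also 5 with the Y-linked level as covariate. Krt18 stood at 4.25, 2.92, 1.21, 3.44 and 4.64 CPM in nlsYAP5SA and 0.448, 0.479 and 0.484 CPM in C57BL/6. Sample 3 had the lowest nlsYAP5SA level and was still above the wild-type levels (log2 fold change 2.77, SE 0.44, adjusted p = 0.00588). Krt7 stood at 3.48, 2.97, 0.91, 2.09 and 3.61 CPM in nlsYAP5SA and 0.0448, 0.0479 and 0.283 CPM in C57BL/6, again lowest in sample 3 (log2 fold change 4.24, SE 0.65, adjusted p = 0.00515). Anxa1, an annexin of epithelia and glia, stood at 15.2, 10.8, 8.62, 10.2 and 13.4 CPM in nlsYAP5SA and 2.74, 2.88 and 3.07 CPM in C57BL/6. The groups were far apart (log2 fold change 1.99, SE 0.20, adjusted p = 0.000504), and all controls, at 1.84 to 2.64 CPM, lay below the wild-type mice. Anxa2, a related protein and the most abundant of the list, stood at 23.6 to 31.8 CPM and 12.5 to 16.4 CPM (log2 fold change 0.96, SE 0.13, adjusted p = 0.00232). Lrp2, an endocytic receptor of absorptive epithelia and ependyma, was among the large increases. It stood at 3.8, 5.6, 3.55, 7 and 7.4 CPM in nlsYAP5SA and 0.493, 0.144 and 0.606 CPM in C57BL/6 (log2 fold change 3.66, SE 0.42, adjusted p = 0.0011).

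Of 15 tested genes of ciliated ependymal cells, 2 were called higher against C57BL/6 and 3 against control, where 4.16% and 7.36% of all genes were called higher. Against C57BL/6, 6 of the 15 had an unadjusted p under 0.05 in edgeR, and the median log2 fold change was 0.31. The list score was 1.73 to 1.94 in nlsYAP5SA, above C57BL/6 (1.35 to 1.67) and control (1.13 to 1.66). The count against C57BL/6 was 1 without nlsYAP5SA 1, 2 or 5 or C57BL/6 1 or 2, and 1 with the Y-linked level as covariate. Foxj1, the transcription factor that switches on motile cilia, stood at 14.2, 14.5, 12.7, 13.2 and 13.8 CPM in nlsYAP5SA and 7.44, 7.43 and 8.36 CPM in C57BL/6. The nlsYAP5SA values formed a narrow band above the wild-type ones (log2 fold change 0.80, SE 0.09, adjusted p = 0.00121). Control 1 and 2, at 11.4 and 9 CPM, lay between the wild-type and nlsYAP5SA ranges. Cfap43, a protein of the ciliary axoneme, stood at 4.12 to 4.87 CPM and 2.42 to 3.47 CPM (log2 fold change 0.64, SE 0.15, adjusted p = 0.0353), and it no longer passed without nlsYAP5SA 1, 2, 4 or 5 or C57BL/6 1 or 2 (log2 fold change 0.54 to 0.67). Rfx3, a cilia transcription factor that neurons also make and the most abundant of the list, stood at 76.5 to 98.2 CPM and 51.5 to 94.9 CPM. These overlapped, and the gene passed the test without C57BL/6 3 (log2 fold change 0.52).

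Genes of dividing cells gave no call against C57BL/6. In edgeR 0 of 21 cell cycle genes were called against C57BL/6, 1 had an unadjusted p under 0.05, and DESeq2 called 1 higher. Mki67, a marker of dividing cells, stood at 11.2, 15, 9.71, 33.3 and 23 CPM in nlsYAP5SA and 16.4, 12.7 and 19.5 CPM in C57BL/6. Sample 4 was above all wild-type mice, sample 5 slightly so, and samples 1 and 3 below all of them (log2 fold change 0.17, SE 0.37, adjusted p = 0.833). The list score was also highest in nlsYAP5SA 4, at 3.06, 3, 2.92, 3.84 and 3.43 in nlsYAP5SA against 3.31, 3.09 and 3.11 in C57BL/6, and without nlsYAP5SA 4 the median log2 fold change was -0.10 in place of 0.12. Without nlsYAP5SA 3, 1 gene was called higher. Ccnd2, a cyclin that is the most abundant of the list, stood at 136 to 202 CPM and 147 to 160 CPM, with nlsYAP5SA 4 highest. Of 13 genes of radial glia and progenitors, 1 was called against C57BL/6 and 4 against control. Over all genes 6.38% and 10.8% were called. The gene called against C57BL/6 was Pax6, a transcription factor of neural progenitors and some astrocytes, at 12.2, 11.3, 11.8, 12.2 and 11.9 CPM in nlsYAP5SA and 9.86, 9.06 and 7.79 CPM in C57BL/6. The levels did not overlap (log2 fold change 0.40, SE 0.10, adjusted p = 0.0392), but the gene no longer passed without nlsYAP5SA 1, 2, 3, 4 or 5 or C57BL/6 1, 2 or 3 (log2 fold change 0.32 to 0.48). Nes, the progenitor intermediate filament, stood at 16.3 to 32.6 CPM and 24.6 to 29.9 CPM, Hopx, a gene of outer radial glia and astrocytes, at 20.8 to 28.7 CPM and 17.7 to 25.2 CPM, and Ptprz1, the most abundant gene of the list, at 418 to 647 CPM and 389 to 749 CPM, each with overlap. Hopx was called against control (adjusted p = 0.0161) and not against C57BL/6 (adjusted p = 0.409 in edgeR), and the references did not differ by the test (log2 fold change -0.14, adjusted p = 1).

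In neurons, the 3 neurofilament genes were lower against both references. Of 17 genes of neocortical pyramidal neurons, 3 were called lower and 0 higher against C57BL/6, with a median log2 fold change of -0.13, and 4 were lower against control. The 3 called against C57BL/6 were the neurofilament genes Nefh, Nefm and Nefl, and no other gene of the list was called there in edgeR. The list score below includes these 3 genes. DESeq2 called 5 lower against C57BL/6. The list score was 6.61, 6.56, 6.62, 6.52 and 6.58 in nlsYAP5SA and 6.78, 6.74 and 6.79 in C57BL/6, without overlap, and 6.67 to 6.87 in control. The median was -0.18 without C57BL/6 2 and -0.03 without C57BL/6 3. Nefh, the heavy neurofilament subunit of long axons, stood at 48.4, 58.9, 56.8, 49.8 and 63 CPM in nlsYAP5SA and 91.5, 115 and 96.5 CPM in C57BL/6. All nlsYAP5SA levels were below the wild-type ones (log2 fold change -0.88, SE 0.11, adjusted p = 0.00152) and below the control ones, 72.9 to 99.4 CPM. Nefm, the medium subunit, stood at 189, 201, 192, 171 and 201 CPM in nlsYAP5SA and 333, 394 and 309 CPM in C57BL/6 and behaved likewise (log2 fold change -0.87, SE 0.09, adjusted p = 0.00066). Nefl, the light subunit, stood at 344, 370, 369, 322 and 360 CPM in nlsYAP5SA and 505, 529 and 499 CPM in C57BL/6, with no overlap (log2 fold change -0.55, SE 0.07, adjusted p = 0.0016). Among 12 genes of hippocampal neurons 2 were lower against C57BL/6, and 3 in DESeq2. Against control 4 were lower and 1 higher, with a median log2 fold change of 0.1. Fibcd1, a receptor gene marking field CA1, stood at 16.2, 18.1, 18.1, 15.1 and 18.5 CPM in nlsYAP5SA and 27.8, 33.5 and 28.5 CPM in C57BL/6. It was lower in every nlsYAP5SA hemisphere than in any other (log2 fold change -0.81, SE 0.10, adjusted p = 0.00137), with controls at 26.8 to 30.8 CPM. Lct, a marker of the dentate gyrus, stood at 2.53, 1.46, 2.51, 3.09 and 2.53 CPM in nlsYAP5SA and 4.39, 4.55 and 5.98 CPM in C57BL/6 (log2 fold change -1.05, SE 0.21, adjusted p = 0.0194), and it no longer passed without nlsYAP5SA 5 or C57BL/6 1 (log2 fold change -1.13 to -1.06), which left 1 gene of the list called.

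The hippocampal median log2 fold change against C57BL/6 was -0.03 and lay on the other side of 0 under scaling by library size alone. It ran from -0.12 to 0.09 when single samples were left out. Zbtb20, a transcription factor of hippocampus and astrocytes and the most abundant of that list, stood at 125 to 203 CPM and 135 to 202 CPM. Of 15 interneuron genes, 0 were called against C57BL/6 in edgeR, 5 had an unadjusted p under 0.05, and DESeq2 called 1 higher and 2 lower. Without C57BL/6 3, 2 were called lower. Gad2, the GABA-synthesizing enzyme and the most abundant of them, stood at 217 to 278 CPM and 220 to 278 CPM. The median of the interneuron list, 0.02, turned negative with the GC and length correction. Outside the lists, Robo3 and Kcng4 were among the large decreases that were also called lower against control. Robo3, an axon guidance receptor, stood at 2.62, 2.35, 2.47, 2.96 and 2.72 CPM in nlsYAP5SA and 5.34, 9.39 and 7.83 CPM in C57BL/6 (log2 fold change -1.53, SE 0.18, adjusted p = 0.00126), with control levels of 4.23 to 6.61 CPM. Kcng4, a silent potassium channel subunit, stood at 1.31, 1.13, 1.86, 1.04 and 1.31 CPM in nlsYAP5SA and 3, 4.46 and 3.96 CPM in C57BL/6 (log2 fold change -1.52, SE 0.22, adjusted p = 0.00333), with control levels of 2.47 to 3.44 CPM. Robo3 and Kcng4 lay below every sample of both references.

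Immediate early genes, which neuronal activity induces within minutes, were lower against both references by their medians. Against C57BL/6, 8 of 11 were called lower and 0 higher, with a median log2 fold change of -0.64, and against control 2 were lower, with a median of -0.39. The score was 3.41, 3.42, 3.40, 3.44 and 3.60 in nlsYAP5SA and 3.91, 4.11 and 4.01 in C57BL/6. It was 3.37, 3.35, 3.90, 4.10 and 3.97 in control, so control 1 and 2 lay with the nlsYAP5SA mice and control 3 to 5 with the wild-type mice. Between control and C57BL/6 the median was -0.23. The count against C57BL/6 was 3, 4 and 3 without nlsYAP5SA 1, 2 and 5, and 4 and 3 without C57BL/6 1 and 2. With the Y-linked level as covariate it was 5. Whether handling, time of collection or litter moved with these levels was not recorded.

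Arc, a synaptic plasticity gene, stood at 16.2, 17.5, 16.9, 16.2 and 18.2 CPM in nlsYAP5SA and 36.8, 45.6 and 39.3 CPM in C57BL/6. The nlsYAP5SA levels were uniform and below all others (log2 fold change -1.27, SE 0.09, adjusted p = 4.45e-05), and the controls stood at 25.5, 18.4, 41, 44.9 and 42.8 CPM. Egr1, a zinc finger transcription factor and the most abundant of the list, stood at 77.2, 86.3, 81.7, 71 and 88.3 CPM in nlsYAP5SA and 115, 131 and 132 CPM in C57BL/6. No level overlapped with the wild-type ones (log2 fold change -0.65, SE 0.09, adjusted p = 0.00258). In the controls it stood at 77.1, 67.3, 125, 140 and 121 CPM, and the difference from control did not pass (log2 fold change -0.39, SE 0.17, adjusted p = 0.184), nor did that between the references (log2 fold change -0.25, adjusted p = 1). Fosb, a subunit of the AP-1 factor, stood at 1.85, 2.31, 1.65, 1.48 and 2.67 CPM in nlsYAP5SA and 3.63, 4.65 and 5.33 CPM in C57BL/6 (log2 fold change -1.21, SE 0.21, adjusted p = 0.0107), without overlap. Npas4, a transcription factor that calcium entry induces, stood at 3.03, 3.81, 2.99, 5.83 and 5.29 CPM in nlsYAP5SA and 8.43, 7.24 and 7.71 CPM in C57BL/6 (log2 fold change -0.91, SE 0.22, adjusted p = 0.0394), and it no longer passed without nlsYAP5SA 1, 2, 3 or 5 or C57BL/6 1 or 2 (log2 fold change -1 to -0.80).

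Myelin genes had a similar division among controls. Of 18 genes of the oligodendrocyte lineage, 5 were called lower and 0 higher against C57BL/6, with a median log2 fold change of -0.48, and 3 were lower against control. The score was 5.66, 6.19, 5.86, 5.47 and 5.97 in nlsYAP5SA and 6.20, 6.52 and 6.33 in C57BL/6. It was 5.99, 5.86, 6.40, 6.38 and 6.30 in control, with control 1 and 2 in the nlsYAP5SA range, and nlsYAP5SA 2 close to C57BL/6 1. The count against C57BL/6 rested on single libraries: it was 1, 8, 3, 3 and 2 without nlsYAP5SA 1 to 5 in that order, and 2, 0 and 8 without C57BL/6 1 to 3, the last with 1 gene called higher. It was 8 with the Y-linked level as covariate, 9 with Ttr as covariate and 10 in DESeq2. Mag, a myelin-associated glycoprotein, stood at 61.2, 98.8, 78.7, 48.1 and 79.3 CPM in nlsYAP5SA and 123, 182 and 134 CPM in C57BL/6. The levels did not overlap with wild type (log2 fold change -1.02, SE 0.21, adjusted p = 0.0212), and they overlapped with the controls, at 88.3, 73.4, 134, 138 and 122 CPM. Mag no longer passed without nlsYAP5SA 1 or 5 or C57BL/6 2 (log2 fold change -1.04 to -0.81). Mog, a myelin surface protein, stood at 10.7, 21.8, 16.6, 8.78 and 18 CPM in nlsYAP5SA and 25.9, 49.3 and 27.9 CPM in C57BL/6 (log2 fold change -1.20, SE 0.30, adjusted p = 0.0434), and it no longer passed without nlsYAP5SA 1, 3, 4 or 5 or C57BL/6 1 or 2 (log2 fold change -1.36 to -0.83).

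Ermn, a cytoskeletal protein of myelinating cells, stood at 4.25, 8.9, 4.68, 5.22 and 7.35 CPM in nlsYAP5SA and 11, 15.6 and 15.3 CPM in C57BL/6. It was lower against C57BL/6 (log2 fold change -1.22, SE 0.24, adjusted p = 0.0159), except without C57BL/6 2 (log2 fold change -1.12), and lower against control (log2 fold change -0.88, SE 0.25, adjusted p = 0.0396), where control 1 and 2, at 8.18 and 6.77 CPM, overlapped with nlsYAP5SA. Mbp, the main myelin protein and the most abundant of the list, stood at 779, 1271, 1025, 601 and 935 CPM in nlsYAP5SA and 1315, 2057 and 1451 CPM in C57BL/6. The highest nlsYAP5SA level, in sample 2, was just below the lowest wild-type level (log2 fold change -0.82, SE 0.22, adjusted p = 0.0596), and the gene passed without nlsYAP5SA 2 (log2 fold change -0.96). Mag, Mog and Mbp did not pass against control (adjusted p = 0.0808, 0.0686 and 0.112), and none of the 3 differed between the references in edgeR (adjusted p = 1 for each).

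Of 16 endothelial and mural genes of the vessel wall, 2 were called higher and 1 lower against C57BL/6, with a median log2 fold change of -0.15, and 3 higher and 4 lower against control, where 6.38% and 10.8% of all genes were called. Acta2, the actin of smooth muscle, stood at 22.6, 27.2, 18.1, 26.2 and 26.9 CPM in nlsYAP5SA and 12.2, 11.1 and 8.36 CPM in C57BL/6. It was higher in each nlsYAP5SA hemisphere (log2 fold change 1.19, SE 0.16, adjusted p = 0.00285). Tagln, an actin-binding protein of smooth muscle, stood at 9.27 to 12.9 CPM and 4.2 to 7.28 CPM (log2 fold change 0.90, SE 0.19, adjusted p = 0.0209), and it no longer passed without nlsYAP5SA 5 or C57BL/6 1 (log2 fold change 0.86 to 0.98), which left 1 gene called higher. Rgs5, a signalling regulator of pericytes and the most abundant of the list, stood at 124, 166, 108, 183 and 161 CPM in nlsYAP5SA and 243, 226 and 234 CPM in C57BL/6. It was lower without overlap (log2 fold change -0.67, SE 0.15, adjusted p = 0.0303), and it no longer passed without nlsYAP5SA 1 or 5 or C57BL/6 1 or 2 (log2 fold change -0.69 to -0.61). Without C57BL/6 3, 3 genes of the list were called lower.

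Among 12 genes of leptomeningeal fibroblasts 2 were higher and 2 lower, and the sign of the median, -0.00, depended on the scaling. Ogn, a small proteoglycan also called osteoglycin, stood at 22.9, 26.1, 19.6, 23.6 and 24.7 CPM in nlsYAP5SA and 12, 10.3 and 11.6 CPM in C57BL/6. It was higher in all 5 nlsYAP5SA mice (log2 fold change 1.03, SE 0.11, adjusted p = 0.000599), with controls at 7.79 to 11 CPM. Aldh1a2, which makes retinoic acid in the meninges, stood at 16, 11.5, 13.6, 14.8 and 14.5 CPM in nlsYAP5SA and 8.79, 8.48 and 7.39 CPM in C57BL/6 (log2 fold change 0.76, SE 0.12, adjusted p = 0.0059), also without overlap. Col3a1, a fibrillar collagen, stood at 28, 33.8, 22.3, 47.8 and 42.2 CPM in nlsYAP5SA and 70.5, 64.2 and 53.6 CPM in C57BL/6. It was lower (log2 fold change -0.86, SE 0.21, adjusted p = 0.0415), and it no longer passed without nlsYAP5SA 1, 2 or 5 or C57BL/6 1 or 2 (log2 fold change -0.93 to -0.77). Lum, another small proteoglycan, stood at 1.47 to 3.57 CPM and 4.08 to 4.94 CPM, and it no longer passed without nlsYAP5SA 1, 2, 3 or 5 or C57BL/6 1 or 2 (log2 fold change -1 to -0.85). The count of lower genes was thus 1 without nlsYAP5SA 3 and 0 without nlsYAP5SA 1, 2 or 5 or C57BL/6 1 or 2, and neither passed with the Y-linked level as covariate. Igf2, a growth factor of meninges and the most abundant of the list, stood at 141 to 246 CPM and 182 to 220 CPM, and the groups overlapped.

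Published lists of genes tied to YAP1 and RELA fusions in ependymoma, which the study also used, were read in the same way. Of 142 tested YAP1-associated genes, 29 were called higher and 2 lower against C57BL/6, with a median log2 fold change of 0.15, and 39 higher and 1 lower against control, 28 of them called the same way against both. The 2 lower genes numbered 0 without C57BL/6 1 and 1 without any other of the 8 samples. Among the higher genes Cyp4f18, a fatty acid hydroxylase with 2 counts in all wild-type libraries together, stood at 0.497, 0.565, 0.347, 0.696 and 0.562 CPM in nlsYAP5SA and was near 0 in both references. It no longer passed without C57BL/6 1 (log2 fold change 3.42, and 3.92 with all samples). Sptbn1, a spectrin and the most abundant of the list, stood at 1033 to 1196 CPM and 837 to 1434 CPM. Of 191 RELA-associated genes, 8 were higher and 10 lower against C57BL/6, and 16 higher and 17 lower against control, with medians of -0.00 whose sign depended on the scaling. Over all genes 4.16% were higher and 2.22% lower against C57BL/6, and 7.36% higher and 3.44% lower against control. The higher RELA-associated count against C57BL/6 was 5, 5, 4, 2 and 5 without nlsYAP5SA 1, 2 and 5 and C57BL/6 1 and 2, and the lower count was 5, 4, 3, 3 and 16 without nlsYAP5SA 1 and 5 and C57BL/6 1 to 3. Txnip, an inhibitor of thioredoxin, stood at 55.7, 52.4, 44.4, 37.4 and 53.4 CPM in nlsYAP5SA and 29.4, 29 and 26.9 CPM in C57BL/6. It was higher in nlsYAP5SA (log2 fold change 0.76, SE 0.13, adjusted p = 0.00779), with controls at 22.1 to 26 CPM, below all wild-type mice. Vasn, a membrane protein, and Parp14, an ADP-ribosyltransferase, were also called higher, but Vasn no longer passed without C57BL/6 1 (log2 fold change 0.68) and Parp14 no longer without nlsYAP5SA 1, 2, 4 or 5 or C57BL/6 1, 2 or 3 (log2 fold change 0.77 to 0.98). Slc1a3, a glutamate transporter of glia and the most abundant of that list, stood at 776, 862, 718, 700 and 763 CPM in nlsYAP5SA and 591, 620 and 652 CPM in C57BL/6, separated from wild type without passing the test (log2 fold change 0.28, SE 0.08, adjusted p = 0.072), and it passed without C57BL/6 3 (log2 fold change 0.32).

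The 5 genes described next had estimated fold changes of opposite sign against control and C57BL/6, and of these only Gm42427 was called against C57BL/6. They were the largest fold changes against control among genes called there whose fold change against C57BL/6 had the opposite sign. How many other genes had this pattern is not given. Control and wild type thus lie on opposite sides of nlsYAP5SA by construction, and no test of that pattern is given. Between the references only Gm42427 passed the test. Gt(ROSA)26Sor, the transcript of the Rosa26 locus, where many conditional transgenes are inserted, stood at 4.43, 4.05, 3.94, 4.7 and 3.79 CPM in nlsYAP5SA and 5.29, 5.61 and 4.04 CPM in C57BL/6. The controls stood at 2.94, 2.35, 2.79, 3.11 and 3.16 CPM, below all other samples, and nlsYAP5SA overlapped with wild type (log2 fold change -0.26, SE 0.14, adjusted p = 0.325). Igfbp6, another binding protein of insulin-like growth factors, stood at 2.07 to 3.21 CPM in nlsYAP5SA, 2.54 to 3.36 CPM in C57BL/6 and 1.37 to 1.96 CPM in control. Taf9, a subunit of general transcription factor complexes, stood at 8.09 to 10.2 CPM, 9.73 to 12.9 CPM and 5.71 to 9.07 CPM in the same order. Sfxn4, a mitochondrial protein, was highest in control, at 6.79 to 8.38 CPM, and stood at 5.48 to 6.72 CPM in nlsYAP5SA and 5.02 to 5.7 CPM in C57BL/6. Against C57BL/6, Igfbp6 (log2 fold change -0.09, adjusted p = 0.838), Taf9 (-0.3, adjusted p = 0.187) and Sfxn4 (0.11, adjusted p = 0.633) did not pass, so their sign there is not established. Gm42427, a transcript of unknown function, was the 1 gene called in opposite directions. It stood at 9.58, 11, 10.3, 11.9 and 11.5 CPM in nlsYAP5SA and 14.1, 13.3 and 15.8 CPM in C57BL/6 and at 8.71, 8.73, 9.05, 9.49 and 8.36 CPM in control. The 3 groups did not overlap, with wild type highest and control lowest (log2 fold change -0.42, SE 0.10, adjusted p = 0.0392), and the call against C57BL/6 no longer passed without nlsYAP5SA 1, 2, 3 or 5 or C57BL/6 1, 2 or 3 (log2 fold change -0.46 to -0.35).

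The differences that set C57BL/6 apart from both transgenic groups were few and large. Genes called between nlsYAP5SA and C57BL/6 and in the same direction between control and C57BL/6 numbered 25, 19 lower and 6 higher in C57BL/6, of which 1 lay on X or Y and is not described. They numbered 16 without C57BL/6 1. Of the 24 others, 3 were also called between nlsYAP5SA and control: Eno1, Glns-ps1 and Gm42427. The 24 lay on 12 of the 19 autosomes, with at most 4 on any 1. Of Nnt, Crb1 and Cyfip2, 3 of 4 genes with variants known to differ between C57BL/6 substrains, which need not change a level, 0 were called in edgeR or DESeq2, and 1 had an unadjusted p under 0.05. Cyfip2, an actin regulator and the most abundant of them, stood at 468 to 542 CPM, 430 to 614 CPM and 429 to 569 CPM in nlsYAP5SA, C57BL/6 and control.

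Wdfy1, an endosomal protein of Toll-like receptor signalling at chr1:79702262-79776143 (GRCm38), was the most abundant of these genes without a near copy. It stood at 46, 46.1, 46.5, 46.1 and 44.1 CPM in nlsYAP5SA and 12.9, 12.9 and 12.3 CPM in C57BL/6. The controls, at 39.9, 42.5, 49.4, 43.2 and 43.7 CPM, lay with nlsYAP5SA, and both were far above wild type (log2 fold change 1.84, SE 0.06, adjusted p = 3.67e-07). For control minus C57BL/6 the difference was as large (log2 fold change 1.79, SE 0.09, adjusted p = 1.35e-05). Among the genes that shared the most of its stretches of 31 bases, the most abundant, Mrpl44, held 1.70% of them. 1500015A07Rik, an antisense transcript of unknown function, stood at 9.9, 10.3, 11.3, 10.2 and 9.04 CPM in nlsYAP5SA and 1.26, 1.29 and 1.05 CPM in C57BL/6. It was lower in wild type (log2 fold change 3.06, SE 0.14, adjusted p = 2.74e-06) with controls at 10.4 to 12.3 CPM. A830036E02Rik, another antisense transcript, stood at 5.88, 8.95, 6.93, 5.91 and 6.6 CPM in nlsYAP5SA and 15.9, 19.4 and 20.8 CPM in C57BL/6 and was higher in wild type (log2 fold change -1.46, SE 0.15, adjusted p = 0.000587), with controls at 5.73 to 10.2 CPM.

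Many of the others were copies of other genes. Of the 24, 10 shared at least 50% of their stretches of 31 bases with another gene and RSEM divides reads among such genes. Eno1, which encodes the glycolytic enzyme enolase, and Eno1b, a copy on another chromosome with 81.8% of its stretches in Eno1, moved in opposite directions. Eno1b stood at 132, 126, 132, 117 and 133 CPM in nlsYAP5SA and 2.87, 1.1 and 0.848 CPM in C57BL/6. Wild type was almost without it, and the controls, at 128 to 166 CPM, lay with nlsYAP5SA (log2 fold change 6.31, SE 0.29, adjusted p = 2.74e-06). Eno1 stood at 242, 226, 240, 232 and 231 CPM in nlsYAP5SA and 510, 523 and 442 CPM in C57BL/6, with wild type about double the rest (log2 fold change -1.08, SE 0.07, adjusted p = 3.01e-05). Gm4735, a processed copy with 89.5% of its stretches in Eno1, stood at 51.9, 63.4, 44, 57.6 and 64.4 CPM in nlsYAP5SA and 18.6, 14.4 and 16.9 CPM in C57BL/6, low in wild type like Eno1b (log2 fold change 1.74, SE 0.14, adjusted p = 0.000154). The sum of the 3 was 426, 415, 416, 406 and 428 CPM in nlsYAP5SA 1 to 5 and 531, 539 and 459 CPM in C57BL/6 1 to 3. Sums were still lower in nlsYAP5SA without overlap, while the controls, at 436 to 505 CPM, overlapped with wild type.

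**Figure D3:**
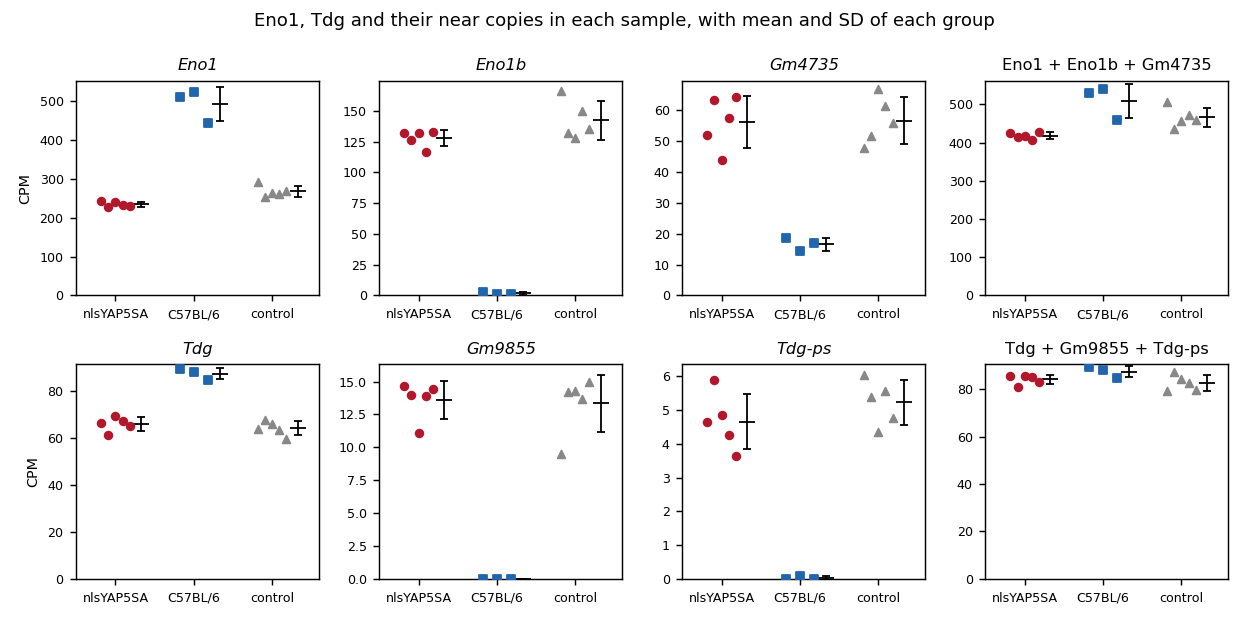
Level in CPM of Eno1 and Tdg, of near copies of each and of their sums, in each hemisphere of the nlsYAP5SA (red circles, 5), C57BL/6 (blue squares, 3) and control (grey triangles, 5) groups, with the mean and SD of each group as a bar. The copies are near 0 or low in C57BL/6 and the parent genes are high there, and the sum of the Tdg family lies at 79.3 to 89.4 CPM in all samples.

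Tdg, a DNA glycosylase that removes mismatched thymine, repeated this pattern with processed copies. Gm9855, with 83.4% of its stretches in Tdg, had 0 counts in all 3 wild-type libraries and stood at 14.7, 14, 11.1, 13.9 and 14.4 CPM in nlsYAP5SA. Against a floor of 3 counts over the wild-type group, nlsYAP5SA was at least 308-fold higher and control at least 302-fold higher. Tdg-ps stood at 4.66, 5.89, 4.85, 4.26 and 3.65 CPM in nlsYAP5SA and had 2 counts in the wild-type libraries together. Tdg itself stood at 66.4, 61.3, 69.5, 67.2 and 65.1 CPM in nlsYAP5SA and 89.4, 88.2 and 84.7 CPM in C57BL/6, higher in wild type (log2 fold change -0.42, SE 0.06, adjusted p = 0.00293). The sum over the 3 was 85.7, 81.1, 85.5, 85.3 and 83.2 CPM in nlsYAP5SA 1 to 5 and 89.4, 88.3 and 84.7 CPM in C57BL/6 1 to 3, and these overlapped. Kpna2, a nuclear import receptor, stood at 15 to 27 CPM in nlsYAP5SA, 35.6 to 45.9 CPM in C57BL/6 and 20.2 to 24.6 CPM in control. Gm10184, with 95.8% of its stretches in Kpna2 and not called between the references, stood at 9.99 to 17.2 CPM, 0 to 2.91 CPM and 12.6 to 26.9 CPM, and their sums overlapped between nlsYAP5SA and C57BL/6. Gm10184 no longer passed without nlsYAP5SA 2 or 5 or C57BL/6 2 (log2 fold change 3.20 to 3.75).

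The remaining copies were all lower in wild type. Gm13456, a copy of the elongation factor gene Eef1a1 (64.9% of stretches), stood at 54.7, 48.8, 58.1, 55 and 49.1 CPM in nlsYAP5SA and 4.48, 4.89 and 4.36 CPM in C57BL/6 (log2 fold change 3.52, SE 0.10, adjusted p = 1.1e-07). Gm10039, a copy of the ATP synthase gene Atp5g1 (92.9%), stood at 37.6, 27.2, 33.8, 28.4 and 27.5 CPM in nlsYAP5SA and 4.12, 1.82 and 5.33 CPM in C57BL/6 (log2 fold change 3.01, SE 0.27, adjusted p = 0.000277). Both had controls in the nlsYAP5SA range or close to it, at 44 to 53.5 CPM and 31.6 to 40.7 CPM. Gm11868, a copy of Cyb5r4 (57.9%), stood at 3.7 to 6.44 CPM in nlsYAP5SA and 0.359 to 0.911 CPM in C57BL/6 (log2 fold change 2.93, SE 0.30, adjusted p = 0.000553). Of the parent genes, Atp5g1 (log2 fold change -0.92, adjusted p = 0.00163) and Cyb5r4 (-0.4, adjusted p = 0.0147) were higher in wild type. Eef1a1 was not called (0.09, adjusted p = 0.553). The sum of copy and parent overlapped between nlsYAP5SA and C57BL/6 in each of these families. Glns-ps1, a copy of the glutamine synthetase gene Glul (46.9%), stood at 20.3, 23.4, 18, 12.3 and 21.2 CPM in nlsYAP5SA and 0.717, 0.288 and 0.283 CPM in C57BL/6. It was nearly absent from wild type (log2 fold change 5.45, SE 0.33, adjusted p = 2.46e-05) and higher in nlsYAP5SA than in control, at 9.41 to 14.1 CPM (log2 fold change 0.59, SE 0.16, adjusted p = 0.0298). Glul itself was called against control (log2 fold change 0.46, adjusted p = 0.0305) and not against C57BL/6 (0.18, adjusted p = 0.549 in edgeR). Gm9847, Gm13230 and Oaz2-ps had 0 counts in all wild-type libraries. Over the group floor of 3 counts nlsYAP5SA was at least 17.1-fold, 10.3-fold and 20.7-fold higher for them in that order. Gm13230 no longer passed without C57BL/6 1, though its fitted log2 fold change over 0 counts was as large (6.36, and 6.35 with all samples).

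Zfp990, a zinc finger gene, and Catspere1, a pseudogene of a sperm ion channel subunit, each had 1 count in the wild-type libraries together. In nlsYAP5SA they stood at 0.91 to 1.35 CPM and 1.22 to 1.95 CPM. Gm4875, a copy with 36.2% of its stretches in Lasp1, also had 1 count in wild type and stood at 1.9 to 2.31 CPM in nlsYAP5SA. Zfp990 and Gm13230 are neighbours at chr4:145510759-145539188 and chr4:145446740-145450888, and Catspere1 and Catspere2 at chr1:177808550-177962233 and chr1:177983423-178172704. Catspere2 stood at 2.8, 2.92, 2.73, 3.09 and 2.67 CPM in nlsYAP5SA and 1.03, 0.959 and 1.09 CPM in C57BL/6 (log2 fold change 1.45, SE 0.16, adjusted p = 0.000835), with controls at 2.17 to 3.78 CPM. Gm7809, a copy of the tropomyosin gene Tpm4 (48.7%), stood at 1.04 to 1.61 CPM in nlsYAP5SA, 0.0479 to 0.135 CPM in C57BL/6 and 0.941 to 1.47 CPM in control. In these neighbouring pairs, the transgenic groups lay above every wild-type mouse.

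Some other large decreases against C57BL/6 had no such call between the references. Gm45640, a transcript of unknown function, stood at 1.22, 1.51, 1.52, 1.65 and 1.36 CPM in nlsYAP5SA and 3.9, 6.09 and 4.44 CPM in C57BL/6 (log2 fold change -1.74, SE 0.18, adjusted p = 0.00066). The controls, at 1.41 to 2.46 CPM, were also below wild type, by a margin just short of the threshold (log2 fold change -1.36, SE 0.21, adjusted p = 0.0511 for control minus C57BL/6). Tnnt1, a troponin of slow muscle that some neurons express, stood at 2.03, 1.41, 1.82, 1.7 and 2.06 CPM in nlsYAP5SA and 3.77, 6.57 and 2.5 CPM in C57BL/6 (log2 fold change -1.25, SE 0.28, adjusted p = 0.029), and it no longer passed without nlsYAP5SA 1, 2, 3, 4 or 5 or C57BL/6 1 or 2 (log2 fold change -1.33 to -0.79). The noncoding transcripts C78859 and Gm37376 were also called lower, C78859 also against control (log2 fold change -0.87, SE 0.24, adjusted p = 0.0335), but against C57BL/6 they no longer passed without nlsYAP5SA 2 or 5 or C57BL/6 1, 2 or 3 (log2 fold change -1.43 to -1.17) and without nlsYAP5SA 1, 2, 4 or 5 or C57BL/6 1 or 2 (log2 fold change -1.48 to -0.68). By chromosome, calls against C57BL/6 made up between 3.74% of tested genes, on chromosome 5, and 9.70%, on chromosome 1.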

How the data were processed

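RNA of 13 right hemispheres was sequenced from KAPA mRNA libraries. The authors trimmed reads with cutadapt 1.5, aligned them to GRCm38 with STAR and deposited RSEM 1.3.0 estimated counts per gene, of which 12.4% to 13.3% per sample were not whole and were rounded. Genes passing filterByExpr were tested between 2 groups at a time with edgeR 4.0.16 in R 4.3.3 (TMM, quasi-likelihood F test, Benjamini-Hochberg), checked on simulated counts. DESeq2 1.42.0 was the other test; tables and figures used pandas 2.3.3 and matplotlib 3.10.9 in Python 3.11.15. A gene was called at an adjusted p of 0.05 or less, held when called in the same direction against both references, and apart when C57BL/6 differed in the same direction from both transgenic groups. The members and the 30 gene lists, with 2 published lists that the study used, were chosen with earlier results of these data known.

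Named genes were Yap1, Wwtr1, Lats1, Lats2 and Neurod6, 19 genes set by name, and the genes apart in C57BL/6. To these were added the 10 largest increases and decreases without overlap and with a mean of at least 50 counts. Genes whose sign differed by reference were limited to the 5 with the largest fold change against control. In each list, up to 4 called genes and the most abundant were named. Enough are described to show each group. Tead1 among TEAD factors, Gadd45a, Glul and CT010467.1 were added after their values were seen. Alternatives were other scalings, filters, tests and covariates, a block on replicate number, a GC and length correction, and leaving out each sample; 23 were planned, and 3 were added after the data were seen, 1 of which gave no valid test.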

Additional observations from a re-analysis of the deposited data

Results flagged for a closer look

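In 330 groups of 5 samples looked at, for described genes and for lists, 1 sample lay far from the other 4 in 21, and chance flags about 1 in 20 groups. The gap as a share of the range in nlsYAP5SA was 0.743 for Vim, 0.769 for Gm9855, 0.757 for C78859, 0.78 for Wdfy1, 0.764 for Igfbp3, 0.746 for Anxa2, 0.712 for C3ar1, 0.787 for Tlr3, 0.735 for Ccnd2, 0.753 for Cdhr1 and 0.753 for Pmch. Among list scores of nlsYAP5SA it was 0.793 for pituitary genes, where sample 4 was low, and 0.8 for immediate early genes, where sample 5 was high. In control it was 0.83 for Wwtr1, 0.771 for Gm9855, 0.818 for Kcng4, 0.727 for C78859, 0.906 for Serpina3n, 0.712 for Spp1, 0.744 for Ccnd2 and 0.82 for Rgs5.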

How the results depend on the processing

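The calls between nlsYAP5SA and C57BL/6 numbered 1596 with the DESeq2 Wald test and 1864 with the GC and length correction. With replicate number as a block they numbered 47. The block left 38 littermate calls also called against C57BL/6, 15 calls between the reference groups and 9 genes apart in C57BL/6. No C57BL/6 sample shares a number with nlsYAP5SA or control 4 and 5, so those samples add nothing to the blocked differences from C57BL/6. The labels do not say that replicate numbers mark litters or batches. With the correction 1306 littermate calls were also called and 40 genes were apart, 39 by its robust form, which was added after the data were seen. With the level of Y-linked genes as covariate 542 genes were called against control and 417 also against C57BL/6. With at least 10 counts in every sample the reference groups gave 16 calls and 14 genes were apart; with DESeq2 these numbers were 59 and 49, and with all 13 samples in 1 fit 44 and 39. Among mice with Y-linked reads, added after the data were seen, 47 genes were called against C57BL/6 and 334 against control, 29 against both, and 15 were apart. Mice without them, also added then, gave no valid test, since C57BL/6 had 1 such mouse and so no measured spread; that comparison is not counted below. Leaving out 1 sample gave 401 to 1757 calls against C57BL/6, 1210 to 1891 against control, 19 to 28 between the reference groups, 342 to 920 called against both and 16 to 26 apart. Of 110 named genes called against C57BL/6, 12 were called in all 20 alternatives, 6 more in the 19 that gave them a value, and 0 reversed in any; 23 were called with the block and 29 in mice with Y-linked reads, where fewer samples were tested. The causes of the other shifts were not tested.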
